A study of Rattus norvegicus with 7 samples.

Results

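The comparison described here is that of oral epithelial cells after 12 h of sodium fluoride (NaF, 2 mM) with the same cells after 12 h of vehicle, across all genes named on the array. It rests on 2 of the 7 arrays of the series, the NaF 12 h array and the vehicle 12 h array. The other vehicle arrays served as the measure of spread, and the earlier NaF arrays showed when each change began. Of 20826 probe sets with 1 gene symbol, 9533 reached a log2 signal of 7 on either of these arrays and were described. They stood for 7697 genes, each represented by its probe set of highest mean signal over the 7 arrays.

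ROE2 cells are an immortalized line derived from the tongue epithelium of a fetal Wistar rat transgenic for a large T-antigen of simian virus 40 that works in a temperature-sensitive manner. They were kept at 37 °C during the exposure, and the NaF groups received 2 mM NaF for 3, 6 or 12 h. The vehicle groups received sterilized water for 0, 3, 6 or 12 h, where the label of the earliest array names vehicle only and its time is given by the methods of the study. Both groups carry the T-antigen, and a single cell line is a limited model of the oral epithelium. Each array carried a pool of RNA from 3 separate experiments, so that neither 12 h condition had a replicate array. The p-values below therefore set the lone NaF 12 h array against the spread of the 4 pooled vehicle arrays of different times, with the NaF array assumed to vary like them.

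Fluoride at high concentrations is toxic to epithelial cells and is known to disturb protein folding in the endoplasmic reticulum (ER). Unfolded proteins in the ER activate the unfolded protein response, in which the sensors IRE1, ATF6 and PERK raise the transcription of chaperones and of proteins that remove misfolded clients. PERK phosphorylates the initiation factor eIF2α, which lowers general translation and favours the translation of ATF4, a transcription factor for amino acid genes and for Ddit3, which encodes the death-associated factor CHOP. The same phosphorylation is reached by other kinases that sense amino acid shortage, viral RNA or heme deficiency, a network called the integrated stress response.

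At 12 h, changes in both directions were widespread. Of the 7697 genes, 2336 (30.3%) were called higher and 2462 (32%) lower on the NaF array, where a call means an adjusted p under 0.05 in limma against the 4 vehicle arrays and a difference from the vehicle 12 h array of the same sign. A call together with a difference of at least 2-fold was reached by 388 genes (5.04%) that were higher and by 398 genes (5.17%) that were lower. These 4 percentages are the background against which the counts of each gene group below should be read. The tails were not alike: 63 genes were called and at least 4-fold higher, whereas 18 were at least 4-fold lower, and an 8-fold difference was passed by 20 genes that were higher and by 1 that was lower. In bulk RNA, fewer cells of a type and less RNA per cell cannot be told apart. The median difference over all genes was 0 and the median absolute difference 0.35 on the log2 scale. Among vehicle arrays the values were far closer, since the vehicle 12 h array differed from the vehicle 0, 3 and 6 h arrays by median absolute values of 0.0865, 0.0837 and 0.0513. At 2-fold, 3 genes were lower on the vehicle 12 h array than on the 0 h array and 4 were lower and 1 higher than on the 3 h array.

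**Figure D1:**
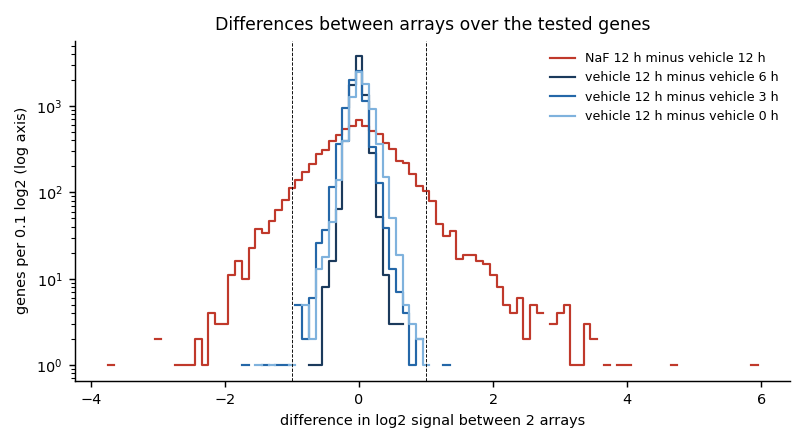
Number of genes per 0.1 log2 (log axis) against the difference in log2 signal between 2 arrays, for NaF 12 h minus vehicle 12 h and for vehicle 12 h minus each earlier vehicle array; dashed lines mark 2-fold. The NaF comparison is the widest, with 388 genes called and 2-fold higher and 398 lower, while the 3 vehicle comparisons stay almost wholly within 2-fold.

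The genes that were called and 2-fold higher came from a lower part of the signal range than those that were 2-fold lower. Their median log2 signal on the vehicle 12 h array was 7.88, against 8.86 for the genes that were lower and 8.86 over all tested genes. The limit itself set part of this difference, since a gene that fell had to reach log2 7 on the vehicle 12 h array. A gene that rose did not have to. On the vehicle 12 h array, 114 of the 388 lay under the limit of log2 7 and had entered through their NaF signal alone, so that they had to differ. In named probe sets rather than genes, 490 reached the limit on the NaF 12 h array only. The same held for falls, where 562 named probe sets reached the limit on the vehicle 12 h array only. Of these, 180 were called and 2-fold lower. The limit itself fell between Zscan12, inside with 7.001 on the NaF 12 h array and 6.59 on the vehicle 12 h array, and a dim probe set of Alkbh1, outside with 6.998 and 5.65 on the same arrays. Array signals include a background, so folds of dim genes are folds of signal and not of RNA.

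**Figure D2:**
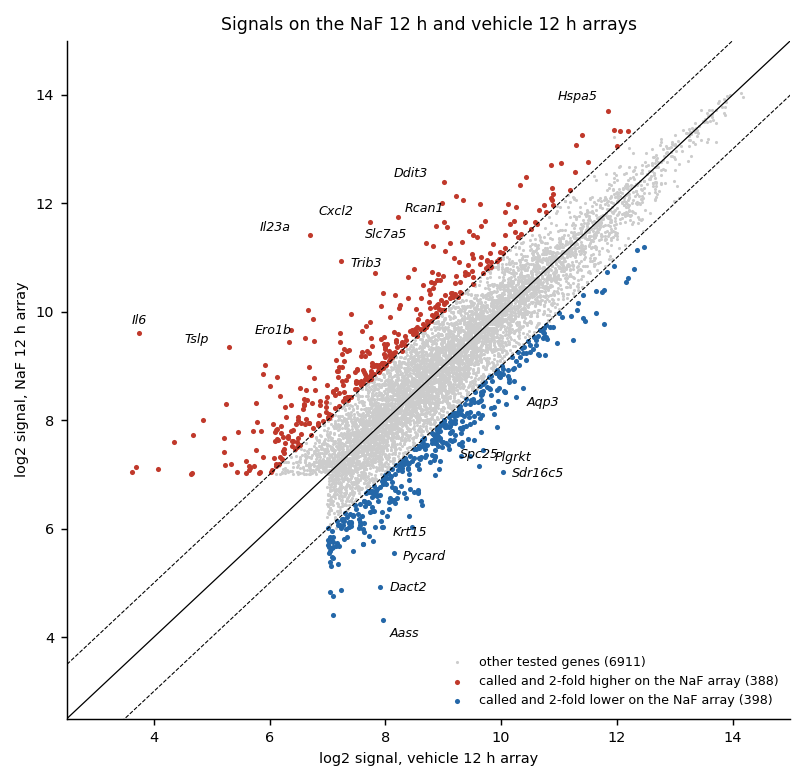
Log2 signal on the NaF 12 h array (vertical axis) against the vehicle 12 h array (horizontal axis) for the 7697 tested genes, 1 point per gene; the solid line is equality and the dashed lines are 2-fold. Il6, Il23a and Tslp lie farthest above the line and Aass farthest below it.

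The largest rises were those of secreted inflammatory mediators. Il6, a pleiotropic cytokine of acute inflammation, had log2 signals of 5.51, 7.04 and 9.61 at 3, 6 and 12 h of NaF, against 4.11, 4.30, 4.15 and 3.75 at 0, 3, 6 and 12 h of vehicle. The difference at 12 h was 58-fold (5.86 on the log2 scale, SE 0.20 against the vehicle mean, adjusted p = 0.00016). Il23a, which encodes the p19 subunit of interleukin 23, reached 6.88, 8.56 and 11.42 in NaF, whereas the vehicle arrays read 7.16, 7.11, 7.11 and 6.70. Tslp, an epithelial alarmin, stood at 6.27, 8.17 and 9.35 in NaF and at 4.81, 5.07, 5.27 and 5.30 in vehicle. For these 3 genes the NaF 12 h value lay above every vehicle value by more than 4 log2 units. On the vehicle 12 h array all 3 genes lay under the limit of log2 7, Il23a narrowly (6.70). They had entered through their NaF signal alone and so had to differ. The signals of Il6 and Tslp were low on every vehicle array, so their folds are relative to a dim signal.

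Behind them came a mixed set. Cxcl2, a neutrophil chemokine, was 15.2-fold higher than vehicle 12 h (11.65 against 7.73), but its vehicle signal had dropped over time, with 9.19, 9.45 and 8.25 at 0, 3 and 6 h, and relative to the vehicle mean the difference was 3.00 instead of 3.92 on the log2 scale. Trib3, a pseudokinase induced by CHOP and ATF4, was 12.9-fold higher, and Rcan1, an inhibitor of the phosphatase calcineurin, 11.6-fold. Hs3st5, a heparan sulfate sulfotransferase, Cxxc5, a zinc finger inhibitor of Wnt signaling, and Fam171b, a membrane protein, were 10.9-, 10.6- and 9.42-fold higher, from vehicle 12 h signals of 3.68, 3.63 and 4.36. A further dim probe set of Hs3st5 differed by 2.36 and one of Cxxc5 by 1.58 on the log2 scale. Dim untested probe sets of some other named genes hardly differed, as those of Ero1b (-0.01), Gnl2 (0.02), Igsf3 (0.00) and Egfr (-0.06). Those of Fos and Dusp1 differed by 0.16 and 0.28, and those of Cxcl3 by 0.05 and 0.18. Ddit3 was 10.3-fold and Csrnp1, a nuclear factor induced by axin, 9.79-fold higher. Mogat1, a monoacylglycerol acyltransferase, was 8.83-fold, Rsad2, the antiviral protein viperin, 8.71-fold and Ifi27l2b, of an interferon-inducible family, 8.68-fold higher. LOC100911534, which the annotation gives no better name, was 10.4-fold higher. Most of the 15 largest rises lay under log2 7 on the vehicle 12 h array, also Mogat1 (4.86), Csrnp1 (6.37) and Rsad2 (6.74). These had entered through their NaF signal alone and so had to differ.

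The largest falls were those of enzymes, membrane proteins and signaling inhibitors. Aass, the mitochondrial enzyme that starts lysine breakdown, read 7.12, 6.91 and 4.31 at 3, 6 and 12 h of NaF, against 7.16, 7.21, 7.31 and 7.96 at 0, 3, 6 and 12 h of vehicle, a 12.6-fold fall at 12 h (adjusted p = 0.00064). Dact2, an inhibitor of Wnt and Nodal signals, was at 6.00, 5.31 and 4.92 in NaF and between 7.61 and 8.10 on the vehicle arrays, and so was already low at 3 h. Sdr16c5, an epidermal retinol dehydrogenase, was at 9.44, 8.49 and 7.05 in NaF and between 9.76 and 10.04 in vehicle. Fat2, a giant protocadherin of squamous epithelia, was 6.48-fold, Pycard, the adaptor ASC of inflammasomes, 6.02-fold, and Serpinb10, a clade B serpin, 5.49-fold lower. Pimreg, a mitotic regulator of the metaphase to anaphase step, was 5.35-fold lower. The remaining 8 of the 15 largest falls were those of Pcdhb19 (5.14-fold), Asb12 (5.07-fold), Plgrkt, a plasminogen receptor (4.74-fold), Hecw2, a ubiquitin ligase (4.62-fold), Serinc5, a membrane protein that restricts retroviruses (4.59-fold), Ephb6, an ephrin receptor (4.52-fold), Igsf3 (4.38-fold) and Rbp7, a retinoid-binding protein (4.32-fold). These 15 were chosen among called genes by the size of the fall. That their NaF 12 h signals were below those of every vehicle array is therefore a description. Most lay under log2 7 on the NaF 12 h array, such as Aass (4.31), Fat2 (4.41) and Asb12 (4.76). These had entered through their vehicle signal alone, and their folds are relative to a dim signal.

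The transcripts of the ER folding machinery rose together at the last time. Of 37 listed ER chaperones and disulfide enzymes on the array, 36 were tested; 27 were called higher and 1, Tmx3 with a difference of -0.26, lower, and 14 were 2-fold higher and none 2-fold lower. The median difference was 0.76 on the log2 scale, against 0 over all genes, and 4 of the 36 had reached the limit only on the NaF array. Hspa5, which encodes the main ER chaperone BiP, had 12.06, 12.52 and 13.70 at 3, 6 and 12 h of NaF, against 11.87, 12.08, 12.28 and 11.85 at 0, 3, 6 and 12 h of vehicle, so its 3.6-fold difference appeared after 6 h. Ero1b, an oxidase that drives disulfide formation, was at 6.56, 7.21 and 9.52 in NaF and at 6.43, 6.73, 6.88 and 6.62 in vehicle. Creld2, an ER stress-inducible disulfide isomerase, was 6.6-fold higher (12.07 against 9.34), Dnajb9, a BiP co-chaperone, 4.43-fold, Sdf2l1, also a BiP partner, 4.25-fold and Pdia5 3.25-fold. Dnajc3, Hyou1 and Manf were 2.78-, 2.87- and 2.66-fold higher, while the abundant lectin chaperone Calr and the chaperone Hsp90b1 were 1.69- and 2.2-fold higher.

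The sequences before the starts of these genes are shown because the ER stress element, to which ATF6 and XBP1 bind together with NF-Y, lies there. The element was taken as CCAAT and CCACG with 9 bases of any kind between them. Its CCAAT end is also the CCAAT box. These letters were sought on both strands in the 250 bases before each RefSeq start (build GRCr8). They occurred in 22 of 33469 promoters (0.0657%) and in 15 of the 6541 tested genes with a promoter (0.229%). Among the ER chaperones they occurred in 7 of 31 (22.6%), namely Hspa5, Hsp90b1, Calr, Canx, Dnajc3, Creld2 and Ero1b, all of which were called higher, although the call of Canx was lost with no filter. In the whole list of ER chaperones, with or without the letters, 27 of 36 were called higher. Of the genes called and 2-fold higher, 7 of 324 had the letters, and of those 2-fold lower, 0 of 328. A match is a description of the letters only. In the following stretches, written 5′ to 3′ along the gene, capitals mark the fixed letters of the element.
Hspa5 (chr3:38452948-38453015, plus strand): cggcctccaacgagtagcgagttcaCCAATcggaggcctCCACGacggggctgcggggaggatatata
Hsp90b1 (chr7:23012322-23012494, minus strand): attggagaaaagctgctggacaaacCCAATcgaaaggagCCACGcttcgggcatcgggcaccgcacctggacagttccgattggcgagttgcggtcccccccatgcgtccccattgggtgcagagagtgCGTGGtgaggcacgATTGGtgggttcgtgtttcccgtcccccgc
Creld2 (chr7:121789214-121789282, plus strand): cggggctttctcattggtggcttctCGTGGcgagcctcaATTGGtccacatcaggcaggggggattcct
Dnajc3 (chr15:102432509-102432577, plus strand): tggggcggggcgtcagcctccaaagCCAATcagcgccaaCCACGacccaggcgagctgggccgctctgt
Ero1b (chr17:92941433-92941501, plus strand): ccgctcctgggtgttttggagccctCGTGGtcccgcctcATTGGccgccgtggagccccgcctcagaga
In Creld2 and Ero1b the element ran on the opposite strand, and Hsp90b1 held 2 copies, 1 in each orientation. The copies started between 224 bases (Ero1b) and 43 bases (Hspa5) before the RefSeq start. The gene with the copy nearest to its start, Hspa5, was 3.6-fold higher and that with the farthest, Ero1b, 7.47-fold.

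Genes that clear or sense misfolded proteins changed in the same direction. Of 23 tested genes of ER-associated degradation, 14 were called higher and 0 lower (median 0.35), and 5 were 2-fold higher. Herpud1, a scaffold of the degradation complex, had 9.25, 10.23 and 12.01 at 3, 6 and 12 h of NaF, against 9.06, 9.27, 9.27 and 8.98 at 0, 3, 6 and 12 h of vehicle. Sel1l, the partner of the ubiquitin ligase HRD1, was 3.2-fold higher, Ube2g2, a ubiquitin-conjugating enzyme, was higher by 1.31 and Edem2, a mannosidase, by 1.22 on the log2 scale, and Syvn1, HRD1 itself, was 2.16-fold higher. The ATPase Vcp, which pulls clients out of the membrane, differed by 0.01 and was not called. Among 41 genes of the translocon and of COPII vesicles, 26 were higher and 8 lower, with 2.19-fold for Mcfd2 and 2.07-fold for Sec23b, whereas Kdelr1, a retrieval receptor, fell by 0.41. Of 29 Golgi and COPI genes, 12 were higher and 4 lower, led by Arfgap3 with 1.37 and Uso1 with 1.02.

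Of 21 tested sensors and transcription factors of the unfolded protein response, 13 were called higher and 4 lower, with a median of 0.96, and 9 were 2-fold higher. Ddit3 had 11.03, 11.99 and 12.39 at 3, 6 and 12 h of NaF, against 9.09, 9.14, 9.16 and 9.02 at 0, 3, 6 and 12 h of vehicle, so it stood 1.89 above vehicle at 3 h and 3.37 above it at 12 h on the log2 scale. Ppp1r15a, the regulatory subunit that returns eIF2α to its unphosphorylated form, was 6.55-fold higher and Atf3 5.87-fold. Atf4, Atf6 and Cebpb were 2.65-, 2.43- and 2.72-fold higher. Xbp1, the factor spliced by IRE1, and Eif2ak3, which encodes PERK, were 1.86- and 1.97-fold higher. The 4 that fell were Mbtps1 and Mbtps2, the proteases that release ATF6 and sterol factors, with -0.56 and -0.43, and the eIF2α kinases Eif2ak4 and Eif2ak2, with -0.47 and -0.22. With no filter on signal the calls of Mbtps2 and Eif2ak2 were lost, and that of Eif2ak2 also with a time trend of the vehicle arrays in the fit. The arrays measured the transcripts and not the splicing of Xbp1 or the phosphorylation of any protein.

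Most tested targets of ATF4 and CHOP were higher. Of 17 tested, 13 were called higher and 1 lower (median 1.08), and 9 were 2-fold higher; several of them, such as Atf3 and Ppp1r15a, also stand in the list above. Of the 17, 2 had reached the limit only on the NaF array. Trib3 had 8.69, 9.42 and 10.93 at 3, 6 and 12 h of NaF, against 6.94, 7.42, 7.28 and 7.24 at 0, 3, 6 and 12 h of vehicle. Chac1, an enzyme that degrades glutathione, was 7.5-fold higher (12.14 against 9.23), Gdf15, a stress cytokine of the TGF-β family, 4.98-fold and Sesn2, an inhibitor of mTORC1, 3.8-fold. The exception was Klhl24, an adaptor of a ubiquitin ligase, which was 2.12-fold lower. Bbc3, which encodes the death protein PUMA, and Cdkn1a, the inhibitor p21, differed by -0.24 and -0.04 and were not called.

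The supply and charging of amino acids moved with them. Of 25 amino acid transporters on the array, 12 were tested, 2 of them on their NaF signal alone. Of the 12, 10 were called higher and 1 lower, with a median of 0.71, while the median of all 25 with no filter was 0.18. Slc7a5, which carries leucine and other large neutral amino acids, had 9.71, 10.14 and 11.27 in NaF at 3, 6 and 12 h, against 8.87, 9.12, 8.89 and 8.71 in vehicle at 0, 3, 6 and 12 h. Slc1a5, a glutamine carrier, was 4.41-fold, Slc7a11, the cystine carrier, 3.01-fold and Slc7a1 2.35-fold higher, while Slc43a2 was 1.86-fold lower. Of 17 enzymes of amino acid and folate-linked synthesis, 11 were higher and 2 lower (median 0.68, and 0.38 with no filter), with 3.43-fold for Psph, the last enzyme of serine synthesis, 3.19-fold for the mitochondrial Pck2 and 2.87-fold for the mitochondrial folate enzyme Mthfd2. Asns, asparagine synthetase, was 1.74-fold higher. Glul, glutamine synthetase, went the other way and was 2.41-fold lower. Among 22 cytosolic aminoacyl-tRNA synthetases and their partners, 17 were higher and 1, Qars1, lower (median 0.47), led by Cars1 with 2.68-fold and Sars1 with 2.27-fold. Of 7 mitochondrial synthetases, 3 were higher and 1 lower.

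Promoters of this group are shown for the composite site bound by ATF4 with a C/EBP partner. The letters TGATGNAAN, on either strand, were found in 1132 of 33469 promoters (3.38%) and in 113 of 6541 tested genes (1.73%). They were found in 5 of 20 cytosolic synthetases (25%), which were Aars1, Iars1, Mars1, Nars1 and Tars1, and in 3 of 13 ATF4 and CHOP targets (23.1%), which were Trib3, Chac1 and Nupr1. All 8 of these genes were called higher, although the call of Mars1 was lost with no filter. In the whole lists, with or without the letters, 17 of 22 synthetases and 13 of 17 targets were called higher. Over the genes called and 2-fold higher the letters stood in 11 of 324 (3.4%), and over those 2-fold lower in 7 of 328 (2.13%). Capitals mark the fixed letters.
Trib3 (chr3:161275534-161275580, minus strand): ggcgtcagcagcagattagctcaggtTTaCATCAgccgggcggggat
Chac1 (chr3:126795938-126795996, plus strand): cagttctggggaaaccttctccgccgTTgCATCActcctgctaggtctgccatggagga
Iars1 (chr17:15193653-15193702, minus strand): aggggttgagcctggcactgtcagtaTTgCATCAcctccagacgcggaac
Aars1 (chr19:55908344-55908402, plus strand): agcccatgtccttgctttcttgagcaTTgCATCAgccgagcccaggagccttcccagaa
Trib3 was 12.9-fold and Chac1 7.5-fold higher at 12 h, while Iars1 was 1.57-fold and Aars1 1.74-fold higher, so genes that share these letters differed widely in size.

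**Figure D3:**
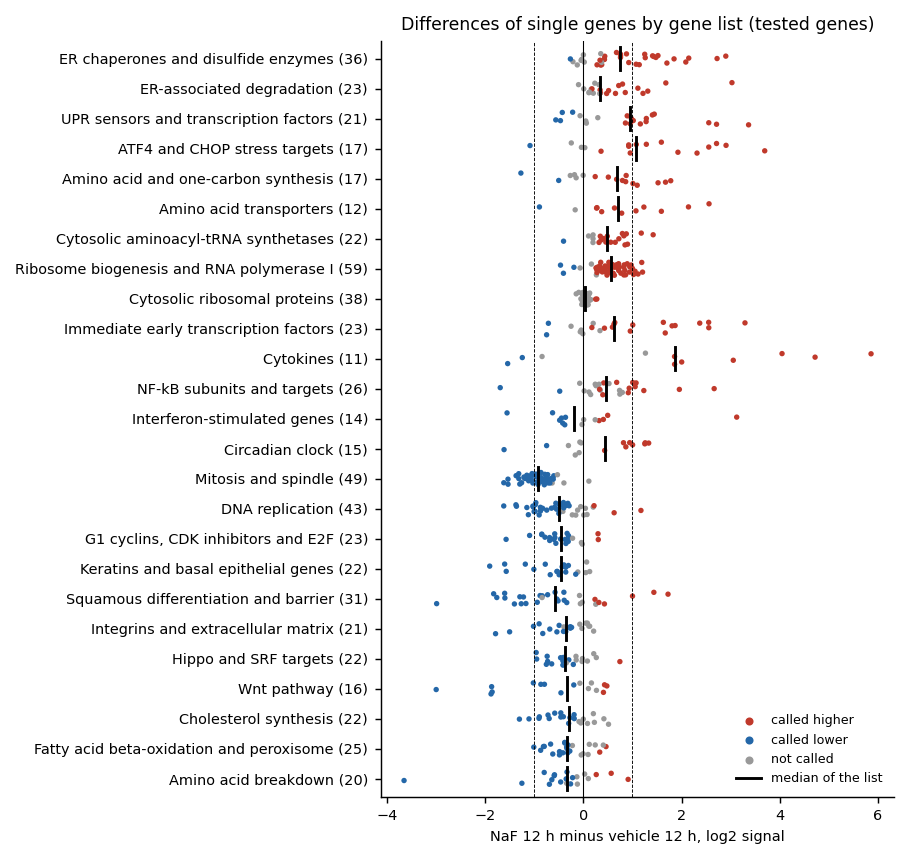
Difference in log2 signal, NaF 12 h minus vehicle 12 h, for every tested gene of 25 gene lists (number of genes in parentheses); colors give the call, black bars the median of each list and dashed lines 2-fold. ER and amino acid lists lie to the right of 0, the mitosis list almost wholly to the left, and cytosolic ribosomal proteins stay near 0.

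Genes for making ribosomes rose by small amounts and nearly without exception. Of 59 tested genes of ribosome biogenesis and RNA polymerase I, 53 were called higher and 3 lower, with a median of 0.55, although 5 alone were 2-fold higher. Gnl2, a nucleolar GTPase, had 8.76, 8.97 and 9.64 at 3, 6 and 12 h of NaF, against 8.61, 8.72, 8.57 and 8.43 at 0, 3, 6 and 12 h of vehicle. Gnl3, nucleostemin, was 2.28-fold, Rrp12 2.17-fold and Polr1e, a subunit of RNA polymerase I, 2.08-fold higher, and Taf1d was 2.03-fold higher. The 3 that were lower were Nhp2 and Nop10, of the pseudouridylation complex, and Ubtf, with -0.19, whose call was lost without the vehicle 6 h or 12 h array. The list medians were -0.04 at 3 h and -0.02 at 6 h, so that the rise stood at 12 h alone. The proteins of the cytosolic ribosome itself hardly moved: of 38 tested, 2 were called higher (Rpl12 and Rpl39, by 0.28 and 0.25), 0 lower, and the median was 0.03. The call of Rpl39 was lost without the vehicle 6 h array. Of 37 translation initiation factors 21 were higher and 2 lower, with Eif1a and Eif2b3 2.09- and 2.05-fold higher. Mitochondrial ribosomal proteins were split, with 24 of 64 higher and 15 lower.

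Several cytokine transcripts were far higher at 12 h of NaF, although few of the listed genes were expressed. Of 26 cytokines on the array, 11 were tested; 7 were called higher and 2 lower, each of these 9 by at least 2-fold, and the median was 1.86. Since 4 of the 11 entered on their NaF signal alone, the median over the genes above log2 7 on the vehicle 12 h array was 1.26, and over all listed genes with no filter it was 0.17. Tnf had 8.99, 9.69 and 8.30 at 3, 6 and 12 h of NaF, against 5.99, 6.47, 5.55 and 5.25 at 0, 3, 6 and 12 h of vehicle, so it was highest at 6 h, although the NaF 12 h array was not called below the 6 h array (-1.38, adjusted p = 0.0958). Il1a, an alarmin stored in keratinocytes, was 4.01-fold above vehicle 12 h, but vehicle itself varied between 10.33 and 11.46 and the difference from the vehicle mean was 1.40 (adjusted p = 0.0376). The call of Il1a was lost without the vehicle 0 h or the vehicle 6 h array, and without the vehicle 12 h array its difference from the mean of the others was 1.19. Csf1, the macrophage growth factor, was 2.37-fold lower at 1 probe set and differed by -0.17 at a further tested one, and Il36rn, an antagonist of interleukin 36, was 2.91-fold lower. A further probe set of Tnf, which was not tested, differed by 0.29 (5.50 against 5.21 at 12 h). Of 9 chemokines, 4 were higher and 1, Ccl7, lower. Cxcl3 was 3.44-fold higher, while Cxcl1, at 13.22 against 11.96, was not called (adjusted p = 0.107), and its vehicle signal had been 12.85 at 3 h.

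Of 26 tested NF-kB subunits and targets, 12 were called higher and 2 lower, with a median of 0.47. Of the 26, 3 had reached the limit only on the NaF array. Cflar, the caspase 8 inhibitor c-FLIP, was 6.34-fold higher at its brightest probe set and differed by 0.50 at a further tested one. Bcl2a1, a survival member of the BCL2 family, was 3.88-fold and Icam1, an adhesion molecule, 2.35-fold higher. Irf1, an interferon-regulated transcription factor, was 3.23-fold lower, and Tnfaip3, a feedback inhibitor of NF-kB, differed by 0.02 from vehicle 12 h and by -0.34 from the vehicle mean, with no call. Interferon-stimulated genes did not share a direction, with 4 of 14 higher and 7 lower and a median of -0.19. Rsad2 led this list, with 9.87 on the NaF 12 h array. Its vehicle signals were 7.52, 7.61, 7.04 and 6.74 at 0, 3, 6 and 12 h. Gbp2, a guanylate-binding protein, was 2.93-fold lower. Ifi27l2b, which is outside this list, was 8.68-fold higher, close to the 8.71-fold of Rsad2.

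Immediate early genes, which respond within minutes to growth factors and stress, were still raised at 12 h. Of 23 tested, 15 were called higher and 2 lower (median 0.62). Of the 23, 4 had reached the limit only on the NaF array, among them Csrnp1 and Fos. Over the genes above log2 7 on the vehicle 12 h array the median was 0.43. Csrnp1 had 9.13, 10.09 and 9.66 in NaF at 3, 6 and 12 h, against 6.39, 6.88, 6.40 and 6.37 in vehicle at 0, 3, 6 and 12 h. Nr4a2 and Nr4a3, orphan nuclear receptors, were 5.87- and 5.17-fold higher, with 4.27 on the log2 scale at a further tested probe set of Nr4a3. Fos had 10.33, 9.03 and 7.93 in NaF, against 5.81, 6.58, 6.00 and 6.06 in vehicle, and between 3 h and 12 h of NaF it fell by 2.39 (adjusted p = 0.00371). Atf3 declined likewise by 1.26 between these arrays (adjusted p = 0.0203) and remained above vehicle. Myc, named here after its values were seen, ran the other way, with -2.11 at 3 h and 1.01 at 12 h, and the NaF 12 h array was 2.78 above the 3 h array (adjusted p = 0.000753). Bhlhe40 and Srf fell by 0.75 and 0.71.

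The inhibitors that growth factor signaling induces against itself were among the risers. Of 10 tested MAP kinase phosphatases and Sprouty genes 4 were called, all of them higher and by at least 2-fold: Dusp5 (5.2-fold), Errfi1, an inhibitor of the EGF receptor (4.9-fold), Dusp1 (4.68-fold) and Dusp6 (2.11-fold). The call of Dusp6 was lost without the vehicle 0 h, 6 h or 12 h array, with a difference of 0.74 from the mean of the others without the vehicle 12 h array. In the EGF family, ligands and receptors separated. Ereg, Hbegf, Nrg1 and Areg, 4 ligands, were 3.89-, 3.77-, 3.41- and 2.97-fold higher, and the receptors Egfr and Erbb2 were 2.29- and 2.18-fold lower. Dimmer untested probe sets of Nrg1 differed by 0.10 to 0.76 on the log2 scale. Egfr had 9.54, 8.79 and 8.34 at 3, 6 and 12 h of NaF, against 9.21, 9.37, 9.33 and 9.54 at 0, 3, 6 and 12 h of vehicle. Tgfa, a further ligand, and Adam17, the protease that sheds them, differed by 0.15 and 0.13 and were not called. Rcan1, whose transcription depends on calcineurin and NFAT in other cells, had 9.47, 10.74 and 11.75 in NaF and 8.48, 8.26, 8.21 and 8.21 in vehicle, while Nfatc1 and Ppp3ca, the catalytic subunit of calcineurin, fell by 0.92 and 0.90.

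**Figure D4:**
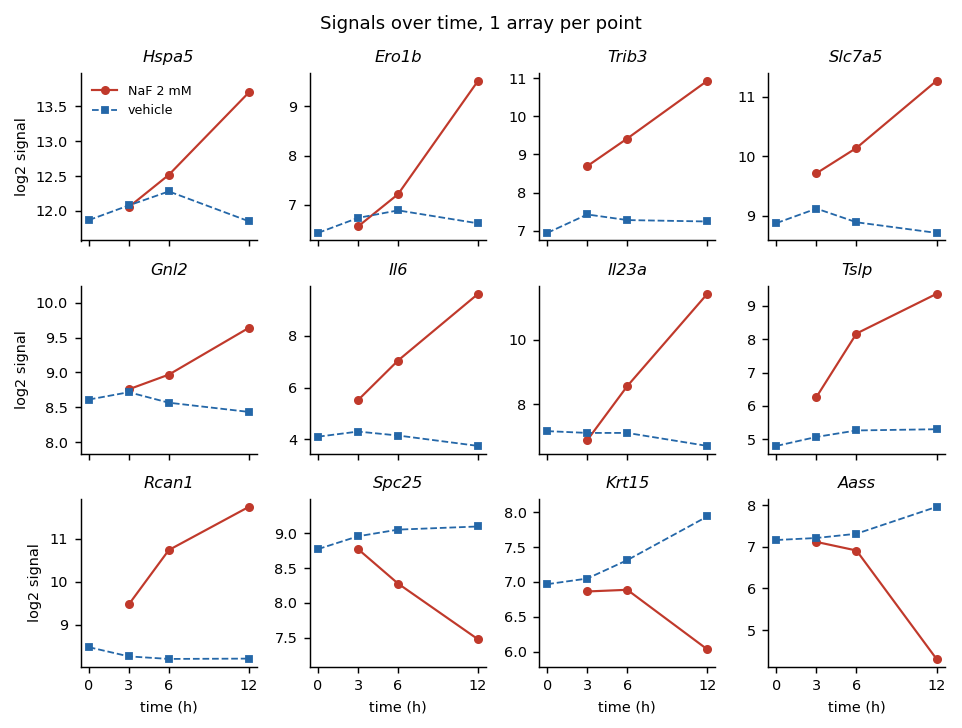
Log2 signal against time (h) of 12 genes for NaF (circles, 3 to 12 h) and vehicle (squares, 0 to 12 h), 1 array of pooled RNA per point, with a separate vertical range for each gene. Hspa5, Ero1b and Gnl2 separate from vehicle mainly at 12 h, Trib3, Slc7a5, Il6, Tslp and Rcan1 already at 3 h, and Spc25, Krt15 and Aass are lowest at 12 h of NaF.

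Proliferation genes formed the most uniform group among those that fell. Of 49 tested genes of mitosis and the spindle, 45 were called lower and 0 higher, 20 of them by at least 2-fold, and the median was -0.93. Spc25, a kinetochore subunit, had 8.77, 8.28 and 7.48 at 3, 6 and 12 h of NaF, against 8.77, 8.96, 9.05 and 9.10 at 0, 3, 6 and 12 h of vehicle. Espl1, the separase, and Nusap1, a spindle protein, were 2.9- and 2.89-fold lower, Kif20a 2.58-fold, Ccnb2, a mitotic cyclin, 2.49-fold and Cenpf 2.49-fold. Cdc25b, Ube2c, Spc24 and Smc4 were not called, with differences of -0.63, -0.53, -0.40 and 0.11. Relative to the vehicle mean the median was -0.75. The course was not the same for all: the NaF signal of Plk1, a mitotic kinase, was higher at 12 h than at 6 h by 1.06 (adjusted p = 0.00738), and that of Lmnb1 by 1.05.

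Mitotic promoters are shown for the cell cycle homology region through which the DREAM and B-MYB complexes act. The letters TTTGAA, short and therefore common, stood on either strand in 5422 of 33469 promoters (16.2%), in 653 of 6541 tested genes (9.98%) and in 22 of 44 genes of the mitosis list (50%). Of these 22, 21 were called lower and 0 higher, the remaining one being Smc4. In the whole mitosis list, with or without the letters, 45 of 49 were called lower. Over the genes called and 2-fold lower they stood in 44 of 328 (13.4%), and over those 2-fold higher in 32 of 324 (9.88%). Capitals mark the motif.
Spc25 (chr3:74396745-74396800, minus strand): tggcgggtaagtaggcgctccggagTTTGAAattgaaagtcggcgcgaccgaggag
Espl1 (chr7:135302608-135302663, plus strand): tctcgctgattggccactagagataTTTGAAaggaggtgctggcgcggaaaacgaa
Ccnb2 (chr8:79981671-79981897, minus strand): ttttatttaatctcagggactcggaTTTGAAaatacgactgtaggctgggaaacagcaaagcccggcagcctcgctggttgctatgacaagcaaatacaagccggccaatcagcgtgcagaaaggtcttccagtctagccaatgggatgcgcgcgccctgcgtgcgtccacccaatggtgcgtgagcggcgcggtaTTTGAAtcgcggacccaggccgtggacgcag
Top2a (chr10:84473094-84473140, minus strand): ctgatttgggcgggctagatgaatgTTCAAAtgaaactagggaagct
Ccnb2 held 2 copies, the nearer one starting 43 bases before the RefSeq start, and Top2a held the motif on the opposite strand. These 4 genes were between 2.16-fold (Top2a) and 3.07-fold (Spc25) lower.

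Among 43 tested genes of DNA replication, 31 were called lower and 3 higher (median -0.50). Gins1, of the replicative helicase, was 3.07-fold, Pole2, a subunit of DNA polymerase ε, 2.59-fold and Rpa3 2.57-fold lower. Orc2, of the origin recognition complex, was 2.26-fold higher, Gins3 1.54-fold higher and Rfc5 higher by 0.22 on the log2 scale, a call lost without the vehicle 6 h array. Of 23 G1 cyclins, inhibitors and E2F genes, 18 were lower and 2 higher (median -0.46), with 2.97-fold for E2f8 and 2.13-fold for Ccnd1, the D-type cyclin, while Cdkn1a did not pass the test. In DNA damage sensing and repair, 15 of 31 were lower and 6 higher, and Fancd2 was 2.19-fold lower. Of 16 tested p53 targets, 5 were higher and 7 lower, and the 2 that were 2-fold higher were Gdf15 and Sesn2, which also stand among the ATF4 targets.

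Genes of epithelial identity and of stratification were mostly lower. Of 22 tested keratins and basal genes, 18 were called lower and 0 higher (median -0.46). Krt15 had 6.86, 6.89 and 6.03 at 3, 6 and 12 h of NaF, against 6.97, 7.05, 7.31 and 7.94 at 0, 3, 6 and 12 h of vehicle. Its vehicle signal thus rose with time, and against the vehicle mean the difference was -1.28 instead of -1.91. Krt13, the keratin of the suprabasal oral epithelium, was 3.03-fold lower with a similar vehicle course (adjusted p = 0.0485). Krt15 lost its call without the vehicle 3 h or 6 h array and Krt13 without the vehicle 0, 3 or 6 h array, and without the vehicle 12 h array their differences from the mean of the others were -1.08 and -0.86. Dst, a hemidesmosomal linker, was 2.97-fold lower at its brightest probe set and differed by -0.07 at a further tested one. The desmosomal cadherin Dsg2 and the basal transcription factor Tp63 were 2.27- and 2.01-fold lower. Krt14, the brightest keratin at 14.03 against 14.14, was not called. Of 31 genes of squamous differentiation and barrier, 20 were lower and 6 higher (median -0.57), 10 of the 20 by at least 2-fold, among them Aqp3, a water and glycerol channel (3.54-fold), Evpl, envoplakin (3.39-fold), and Dmkn (3.03-fold). S100a8 and S100a9, the subunits of the antimicrobial calprotectin, were 3.31- and 2-fold higher, and Aloxe3, a lipoxygenase of the epidermal barrier, 2.71-fold.

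Adhesion followed the same direction with exceptions. Of 30 junction genes, 16 were lower and 5 higher. Nectin1 and the gap junction gene Gjb2 were 2.56- and 2.41-fold lower, whereas the polarity gene Pard6b and the tight junction gene Tjp3 were 3.08- and 2.85-fold higher. Of 21 integrin and matrix genes, 13 were lower and 0 higher (median -0.36), with 3.45-fold for Col5a2 and 2.83-fold for Itgb5. Itgb1, the common β subunit, differed by 0.11 and was not called, and Itgav, with 0.08 at its brightest probe set, differed by 1.37 and 1.13 at the other tested probe sets. Of 22 targets of Hippo signaling and of the actin-dependent factor SRF, 13 were lower and 1 higher (median -0.37), with Ccn2 1.93-fold and Tagln 1.95-fold lower. In contrast, Plaur, the urokinase receptor, and the collagenase Mmp13 were 3.88- and 3.27-fold higher. Their list of 13 matrix protease and plasminogen genes was split, with 5 higher and 4 lower.

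Lists of developmental signaling held called genes in both directions, except for TGF-β and BMP signaling. Of 16 Wnt genes, 9 were lower and 3 higher (median -0.32), the falls including those of the receptors Fzd1 and Fzd2 (3.68- and 3.62-fold) and of the transcription factor Tcf7l2 (3.65-fold). Fzd2 had 6.82, 5.78 and 5.86 at 3, 6 and 12 h of NaF, against 7.61, 7.85, 7.72 and 7.71 at 0, 3, 6 and 12 h of vehicle, so it was as low at 6 h as at 12 h. In the Notch pathway 3 of 13 genes were higher and 5 lower, close to the shares over all genes. Dll1, Notch1 and Jag1 were 2.77-, 2.21- and 2.17-fold lower, and Rbpj, the DNA-binding factor of the pathway, was 2.46-fold higher. Of 26 genes of TGF-β and BMP signaling, 11 were lower and 0 higher, and the 2-fold falls were those of Tgfb2, Tgfbi, Id4 and Id2. In the circadian clock list, of 15 genes 8 were called higher and 2 lower, with 2.52-fold for Nfil3, 2.39-fold for Nr1d1, 2.38-fold for Cry1 and 2.01-fold for Per2, and 3.06-fold lower for Bhlhe41. The median of the clock list was 0.43 over the tested genes but -0.06 over those above log2 7 on the vehicle 12 h array.

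In the metabolic lists, falls outnumbered rises in most. Of 22 cholesterol synthesis genes, 14 were called lower and 0 higher (median -0.29), with Fdft1, the squalene synthase, and Fdps 2.46- and 2.15-fold lower. Of 25 genes of fatty acid oxidation and peroxisomes, 16 were lower and 2 higher (median -0.33), and Hadh was 2.01-fold lower. Amino acid breakdown, with 12 of 20 lower and 3 higher (median -0.34), ran opposite to amino acid synthesis and held Aass and Mcee, which was 2.38-fold lower. Of 49 respiratory chain genes, 21 were lower and 6 higher, with 1, Ndufc2, 2-fold lower. The cytosolic and mitochondrial isocitrate dehydrogenases Idh1 and Idh2 fell by 1.21 and 1.01 on the log2 scale. Their list, the tricarboxylic acid cycle with pyruvate dehydrogenase, showed no such fall, with 4 of 21 higher, 3 lower and a median of 0.07. Odc1, which starts polyamine synthesis, was 3.27-fold higher, while of 9 polyamine genes 3 were higher and 4 lower. Of 20 hypoxia targets, 11 were higher and 5 lower, among them Vegfa, an angiogenic factor (5.6-fold higher), and Ankrd37 (5.51-fold higher). Vegfa had 10.28, 10.90 and 11.56 at 3, 6 and 12 h of NaF, against 9.29, 9.33, 8.94 and 9.07 at 0, 3, 6 and 12 h of vehicle.

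Further groups were split in direction. Of 31 genes of the apoptosis machinery, 11 were higher and 10 lower; Casp4, an inflammatory caspase, was 3.8-fold higher, and Pycard was at 7.76, 7.25 and 5.56 in NaF at 3, 6 and 12 h, against 8.12, 8.29, 8.14 and 8.15 in vehicle at 0, 3, 6 and 12 h. Among 37 heat shock proteins of cytosol and mitochondria, 12 rose and 7 fell, with Hspa4l 3.8-fold and the mitochondrial protease Lonp1 2.61-fold higher and the small heat shock protein Hspb1 1.97-fold lower. Of 26 NRF2 targets, 8 were higher and 9 lower, and of 38 proteasome subunits 8 and 13. Lysosomal genes were lower in 20 of 44 cases and higher in 7. Mt2A, a metallothionein, was 3.54-fold higher. Clk4, a splicing kinase, was 2.4-fold higher, but splicing factors as a list were even, with 12 of 51 in each direction.

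**Figure D5:**
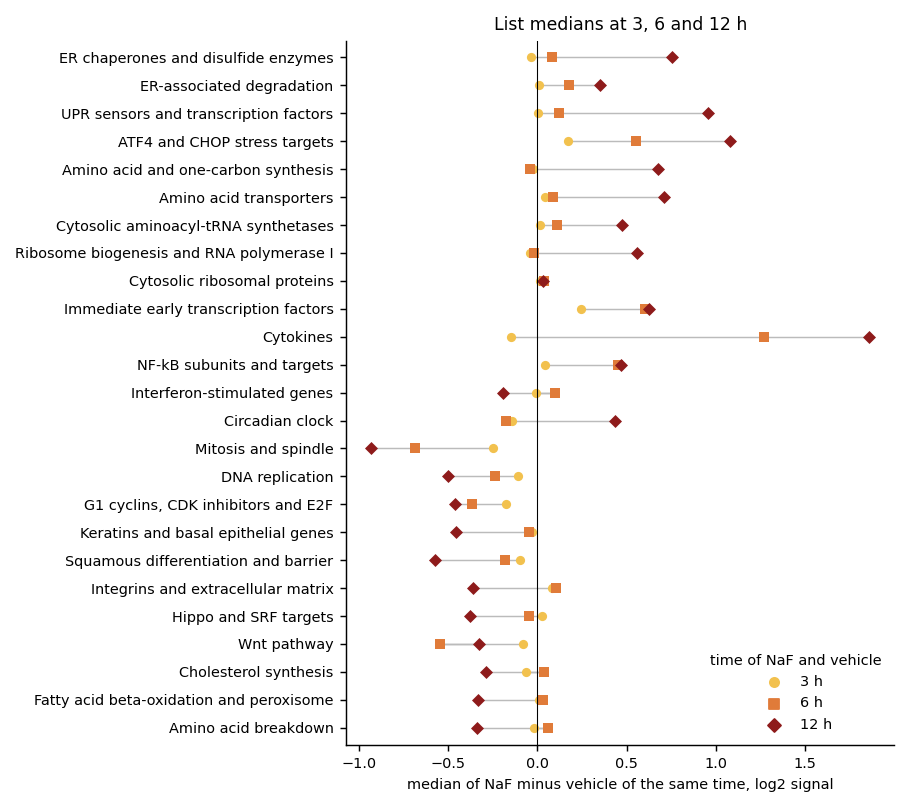
Median difference in log2 signal, NaF minus vehicle of the same time, of 25 gene lists at 3 h (circles), 6 h (squares) and 12 h (diamonds). ER chaperones have medians of -0.04, 0.08 and 0.76 at 3, 6 and 12 h and cytokines of -0.15, 1.27 and 1.86, while the mitosis list has -0.25, -0.69 and -0.93.

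The number of genes with a 2-fold difference from the vehicle of the same time, with no test, grew with time. It was 35 higher and 68 lower at 3 h, 156 higher and 221 lower at 6 h, and 390 higher and 399 lower at 12 h of NaF. Of the 388 genes called and 2-fold higher, 28 had differed 2-fold at 3 h and 129 at 6 h, and of the 398 that were lower, 11 and 79 had. These genes were chosen by their NaF 12 h signal, so that these shares are a description. The medians of ER chaperones, of ribosome biogenesis, of keratins and of amino acid breakdown were within 0.1 of 0 at 3 and 6 h, whereas those of immediate early genes and NF-kB targets at 6 h (0.60 and 0.45) were close to those at 12 h (0.62 and 0.47). A change of sign was met in 145 genes, called in opposite directions at 3 h and 12 h with a called difference between these NaF arrays. Of them, 135 were lower at 3 h and higher at 12 h, and 10 were the reverse. The starting numbers differed, since 492 genes were called lower and 198 higher at 3 h. Over all genes, 30.3% were called higher and 32% lower at 12 h. These comparisons share their vehicle arrays.

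The labelled cell type was checked against its markers. Of 20 epithelial markers on the array, 17 reached log2 7, whereas 4 of 18 fibroblast markers and 1 each of 15 muscle, 12 leukocyte, 11 endothelial and 9 melanocyte and Schwann cell markers did. The summed signal of the epithelial markers was 15.86 on the log2 scale on the NaF 12 h array and between 16.08 and 16.12 on the vehicle arrays, and that of the fibroblast markers, among which Vim was 2.25-fold lower, was 13.73 against 13.86 to 13.99. The leukocyte list summed to 9.77 against 10.23 to 10.35 and the endothelial list to 8.09 against 8.20 to 8.33. The muscle list, at 10.47 against 10.04 to 10.31, and the melanocyte and Schwann cell list, at 10.07 against 9.79 to 10.02, lay above every vehicle array. The part of these lists in the results was not tested. Of 11 reference genes, 1, Tfrc, was called higher (1.77-fold) and 2, Gusb and Hprt1, lower (1.86- and 1.53-fold), and the Gapdh control had 13.27 on the NaF 12 h array and 13.26, 13.18, 13.24 and 13.26 on the vehicle arrays of 0, 3, 6 and 12 h. As a sign of RNA quality, the 3′ signal of the beta-actin control exceeded the 5′ signal by 2.15 on the NaF 12 h array. On the vehicle arrays of 0, 3, 6 and 12 h it did so by 1.98, 2.83, 1.53 and 1.54. The NaF value thus lay within the vehicle range through the 3 h array alone. For the Gapdh control the same difference was 0.171 on the NaF 12 h array, below every vehicle array. The vehicle arrays of 0, 3, 6 and 12 h had 0.294, 0.506, 0.196 and 0.182.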

How the data were processed

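RNA of ROE2 cells, pooled from 3 independent experiments per array, was measured on 7 Affymetrix Rat Genome 230 2.0 arrays. The deposited log2 signals had been normalized by the authors in GeneSpring GX, with a summarization and a normalization that no source used here names. Gene names came from the platform annotation: of 31099 probe sets, 20826 had 1 symbol, 436 several and 9780 none, and names were taken from the first kind alone. Probe sets that reached log2 7 on either 12 h array were tested (11437, of which 9533 had 1 symbol). A limma fit (version 3.58.1, R 4.3.3) held the mean of the 4 vehicle arrays and a coefficient for each NaF array, with 3 residual and 2.68 prior degrees of freedom, and Benjamini-Hochberg adjustment over all 11437. Sizes are NaF 12 h minus vehicle 12 h, standard errors those of the comparison with the vehicle mean (median 0.0852 on the log2 scale). The fit was tested on simulated data. The number of arrays limits the precision.

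The genes named were the 15 largest rises and falls among called genes, up to 6 called members of each list with the largest differences, uncalled members that show both sides, the reference genes and the genes with a printed promoter. The gene lists and members were chosen with earlier results of these data known. Of 17 motifs sought in 250 bases of RefSeq promoters (build GRCr8), the 3 described were chosen after their matches were seen. The alternatives were another filter, normalization, baseline, variance trend, vehicle time trend, fold threshold or probe set rule, and the omission of each vehicle array.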

Additional observations from a re-analysis of the deposited data

Results flagged for a closer look

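Among the 218 genes named, 12 had a vehicle array that stood apart from the other 3. Chance gives this in about 1 in 20 groups, which is near the share seen here. The vehicle 3 h array was highest for Cdkn1a (11.62), Csrnp1 (6.88) and Ppp1r15a (9.06) and lowest for Hadh (9.58), Mcfd2 (9.87) and Vcp (11.98), in log2 signal. The vehicle 12 h array was lowest for Eif1a (10.59), Il23a (6.70) and Odc1 (11.03) and highest for Nusap1 (9.47). The vehicle 6 h array was highest for Eif2b3 (8.09) and the vehicle 0 h array lowest for Glul (8.84).

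Of the genes named, Myc and Ankrd37 were called lower at 3 h and higher at 12 h of NaF, with NaF 12 h above NaF 3 h by 2.78 for Myc and by 3.13 for Ankrd37 on the log2 scale. Outside the named genes, 134 of 1904 tested probe sets without a single symbol were called and 2-fold higher at 12 h of NaF, and 119 were called and 2-fold lower. Of the named probe sets, 5.21% were called and 2-fold higher and 4.88% lower. Of the 1904, 4 were 2-fold higher on the vehicle 12 h array than on the vehicle 0 h array.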

How the results depend on the processing

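The counts of called probe sets stayed within 1.5 times under every alternative except the 2.5-fold threshold, which left 247 higher and 185 lower in place of 497 and 465 at 2-fold. Without 1 vehicle array each, 2473 to 2984 probe sets were called higher, 2442 to 2967 lower, 459 to 497 2-fold higher and 407 to 464 2-fold lower. Of 218 genes named, 19 changed their call or direction under some alternative. Reversals were met in Krt14 under quantile normalization (0.051), in Smc4 against the vehicle mean (-0.044), in Tnfaip3 against the vehicle mean (-0.34) and under quantile normalization (-0.033). Without each vehicle array in turn, Smc4 ranged from -0.10 to 0.11 and Tnfaip3 from -0.46 to 0.017. These genes were not called, and the cause was not tested.

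List medians depended most on the filter. With log2 7 required on the vehicle 12 h array, they were 0.56 for ER chaperones, 0.51 for amino acid synthesis, 0.58 for amino acid transporters, 0.96 for ATF4 and CHOP targets, 0.43 for immediate early genes, 1.26 for cytokines, -0.36 for interferon-stimulated genes, -0.46 for the Wnt pathway and, reversed, -0.057 for the circadian clock. With no filter, they were 0.86 for sensors and factors of the unfolded protein response, 0.38 for amino acid synthesis, 0.18 for amino acid transporters, 0.93 for ATF4 and CHOP targets, 0.17 for cytokines, -0.066 for interferon-stimulated genes, -0.24 for amino acid breakdown, -0.38 for keratins, -0.40 for squamous differentiation, -0.27 for integrins and matrix, -0.12 for Wnt and 0.10 for the clock. With the mean of all tested probe sets, they were 0.45 for ER-associated degradation, 1.27 for ATF4 and CHOP targets, -0.17 for cholesterol synthesis and 0.64 for the clock. Against the vehicle mean, they were 1.40 for cytokines, -0.75 for mitosis and -0.27 for amino acid breakdown. No paired analysis was possible because each NaF time had a single array.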

Other observations

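The other 14 motifs sought on both strands of the 250 bases before each RefSeq start (build GRCr8) are given as a description with no test. For each, the shares are those of genes called and 2-fold higher at 12 h of NaF, of genes 2-fold lower, of all 6541 tested genes and of all 33469 promoters, in this order. The cAMP response element (TGACGTCA) was in 4.63%, 1.83%, 3.36% and 1.59%. The AP-1 site (TGAGTCA) was in 5.86%, 3.96%, 3.2% and 4.05%. The E-box (CACGTG) was in 8.64%, 8.23%, 9.17% and 5.59%. The element of the unfolded protein response (TGACGTGG) was in 1.23%, 0%, 0.826% and 0.52%. The E2F site (TTTCCCGC) was in 0.926%, 2.13%, 2.08% and 0.813%, and its variant (TTTGGCGC) in 0.926%, 0.61%, 0.826% and 0.412%. The sterol regulatory element (CACCCCAC) was in 1.85%, 2.44%, 1.97% and 2.32%. The CCAAT box was in 38%, 40.2%, 36.7% and 34%, and CCACG alone in 45.7%, 37.2%, 43.8% and 27.2%. The stricter composite site (TGATGCAAT) was in 0.309%, 0%, 0.153% and 0.161%, and TTCGAA, a variant of the cell cycle homology region, in 1.54%, 1.52%, 2.02% and 1.4%. An NF-kB site was in 1.54%, 0%, 0.52% and 0.314%, a looser form of it in 58.3%, 64%, 62.3% and 42.3%, and a serum response element in 0%, 0.305%, 0.0459% and 0.0299%.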
